A study of Mus musculus with 53 samples.

Results

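Egr1, Egr2 and Egr3 encode zinc finger transcription factors of the early growth response (EGR) family, and Nab1 and Nab2 encode the corepressors that bind them. These 5 genes were taken by symbol from 23847 loci, and their levels were followed in 53 RNA-seq libraries of mouse bone marrow-derived macrophages (BMDMs) that did or did not receive the cytokine IL-4. The macrophages came from wild-type (WT) mice and from mice with a full-body Stat6 knockout (Stat6-/-), aged 8-12 weeks. The knockout was on the C57BL/6 background, and in such an animal the gene is altered in every cell, not in the macrophage alone. Marrow was cultured for 6 days with L929 supernatant, a source of the growth factor M-CSF that all groups shared, and IL-4 was then given at 20 ng/ml for 1, 3, 6 or 24 h. Cells left without IL-4 were collected at 0 h and at each of the same times. Each WT group held 4 libraries, except the 24 h IL-4 group with 3 (replicates 2, 3 and 4), and each Stat6-/- group held 2. Values are FPKM (fragments per kilobase of a transcript, relative to all mapped fragments of the library), which allow levels of different genes to be set side by side because they are scaled by transcript length.

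EGR proteins are products of immediate early genes, which cells transcribe within minutes of a growth factor or cytokine signal without making new protein first. They bind GC-rich DNA through their zinc fingers, and NAB1 and NAB2 dock on a short inhibitory domain of EGR1, EGR2 and EGR3 and mostly repress the genes to which the EGR protein is bound, in part through the NuRD chromatin remodelling complex. Nab2 is itself a known EGR target, so that the pair forms a feedback loop. In the myeloid lineage EGR1, EGR2 and the NAB proteins are known for favouring macrophage over neutrophil differentiation. IL-4 acts through the transcription factor STAT6 and drives the alternative, or M2, state of macrophages.

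On mm10, Egr2 lies on chr10:67537869-67542188 on the plus strand and Egr3 on chr14:70077445-70080157 (plus). Nab1 lies on chr1:52455849-52500448 (minus). Nab2 lies on chr10:127660918-127666703 on the minus strand, tail to tail with Stat6 on the plus strand (chr10:127642986-127660987). The 2 loci share 70 bases, 2.54% of the 2761 exonic bases of Nab2, and since the library kit keeps no strand, fragments from these bases cannot be told apart. The antisense gene Gm16229 also overlaps Nab2.

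The sequence just upstream of the start of transcription is shown for the genes that responded most and for Nab1, because EGR factors act on such regions and Nab2 is a known EGR target. RefSeq promoter windows of build GRCm38.p6 matched the start given above for 3 members, Egr2, Nab1 and Nab2. Egr2 has 5 such windows, of which 1 matched. In GENCODE the genes Egr2 and Nab2 begin further upstream, at chr10:67535475 and chr10:127668568. The windows below therefore stand for 1 start each. Each window covers 250 bases, positions are counted back from -1 at the base next to the start, and each was searched on both strands. For Egr2 the whole window, chr10:67537619-67537868 on the plus strand, is given, with a CArG box (the site of serum response factor, SRF) in capitals at -72 to -63:
Egr2: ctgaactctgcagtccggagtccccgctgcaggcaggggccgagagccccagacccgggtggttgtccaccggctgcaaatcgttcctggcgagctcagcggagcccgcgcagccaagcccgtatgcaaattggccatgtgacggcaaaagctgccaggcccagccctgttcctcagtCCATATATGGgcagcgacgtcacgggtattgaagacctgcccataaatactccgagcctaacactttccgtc
For Nab2 the window holds no match, and the 243 bases outside annotated exons of the gene, chr10:127666711-127666953 on the minus strand, are given in lower case:
Nab2: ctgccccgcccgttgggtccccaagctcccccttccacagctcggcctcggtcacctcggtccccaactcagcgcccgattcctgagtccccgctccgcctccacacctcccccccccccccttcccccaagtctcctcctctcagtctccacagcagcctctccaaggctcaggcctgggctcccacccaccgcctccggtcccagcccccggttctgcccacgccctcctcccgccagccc
For Nab1 most of the window is part of the first exon in GENCODE, so only the 3 EGR sites are given, in capitals with 10 bases on each side, at -141 to -133, -109 to -101 and -38 to -30:
Nab1 first site: gccccgcggcCGCCCACGCcgggatctgc
Nab1 second site: actcggccgcGCGTGGGCGggagccggag
Nab1 last site: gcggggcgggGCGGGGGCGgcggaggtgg
The EGR site was searched as GCGNGGGCG and is held by 4.70% of 32851 such windows, and the CArG box by 1.47%. No match was found in the 3 windows to the STAT motif TTCNNNGAA (7.02% of windows), to the same motif with 4 spacer bases, the form that STAT6 prefers (5.85%), or to the cyclic AMP response element TGACGTCA (1.55%). The GC box GGGCGG, which can overlap an EGR site and is found in 32.7% of windows, occurred 6 times for Nab1, 1 time for Nab2 and 0 times for Egr2. The windows differ in base composition, with 80.8% G and C for Nab1, 72.8% for Nab2 and 61.6% for Egr2 against a median of 52.4%. These matches are letters only, and no binding was measured here.

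The targeted gene matched the genotype labels, since Stat6 averaged 83.0 ± 3.11 FPKM (SD, n = 4) in WT and 21.1 ± 1.11 (n = 2) in Stat6-/- cells at 0 h. Over all samples without IL-4 the Stat6-/- level was 25.2% of WT, so some RNA was still read from the targeted locus. Macrophage markers (Csf1r, Emr1, Cd68, Itgam, Mertk) summed to 2588-3659 FPKM in WT and 3141-4246 FPKM in Stat6-/- libraries. Of the T cell markers, Cd3e, Cd3g and Cd8a stayed below 1 FPKM in every library, whereas Cd4 had a median of 5.61 FPKM, reached 15.5 FPKM and was at 1 FPKM or more in 51 of 53 libraries. The 3 B cell markers and the 3 fibroblast markers were below 1 FPKM in every library. The sum of 3 neutrophil markers (S100a8, Mpo, Elane) ran from 88.2 to 263.3 FPKM in WT and from 244.3 to 496.8 FPKM in Stat6-/- cells. Relative sequencing depth ranged from 0.715 to 1.53 of the median library, with medians of 1.00 in WT and 1.01 in Stat6-/-. In bulk RNA, fewer cells that express a gene and less RNA per cell cannot be told apart.

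The 2 Stat6-/- replicates stood apart from each other for the EGR genes, and this widened the error of every comparison below. Over the 9 Stat6-/- groups Egr1 was higher in replicate 2 in 9 of 9, by a mean of 1.77 on the log2(FPKM + 1) scale. Egr3 was also higher in replicate 2 in 9 of 9 groups, by 0.86. Egr2 went the other way, being lower in replicate 2 in 9 of 9 groups by a mean log2 difference of -1.75. Nab2 was lower (-0.36) and Nab1 higher (0.15) in replicate 2 in 9 of 9 groups. Being higher in replicate 2 in all 9 groups was a property of 15.6% of 11146 loci and being lower of 18.7%, but mean differences as large as 1 or -1 were seen for 2.63% and 1.48%. Among 12 further immediate early genes that were tested, 5 were higher in replicate 2 in all 9 groups, among them Dusp1 (1.02), Ier5 (0.92) and Ier2 (0.78), and 2 were lower. The origin of this split was not tested, and the members' responses and genotype differences are also given without all libraries of each Stat6-/- replicate. Such a fit leaves 1 library per Stat6-/- group, so its p-values hold no spread between Stat6-/- replicates.

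**Figure D1:**
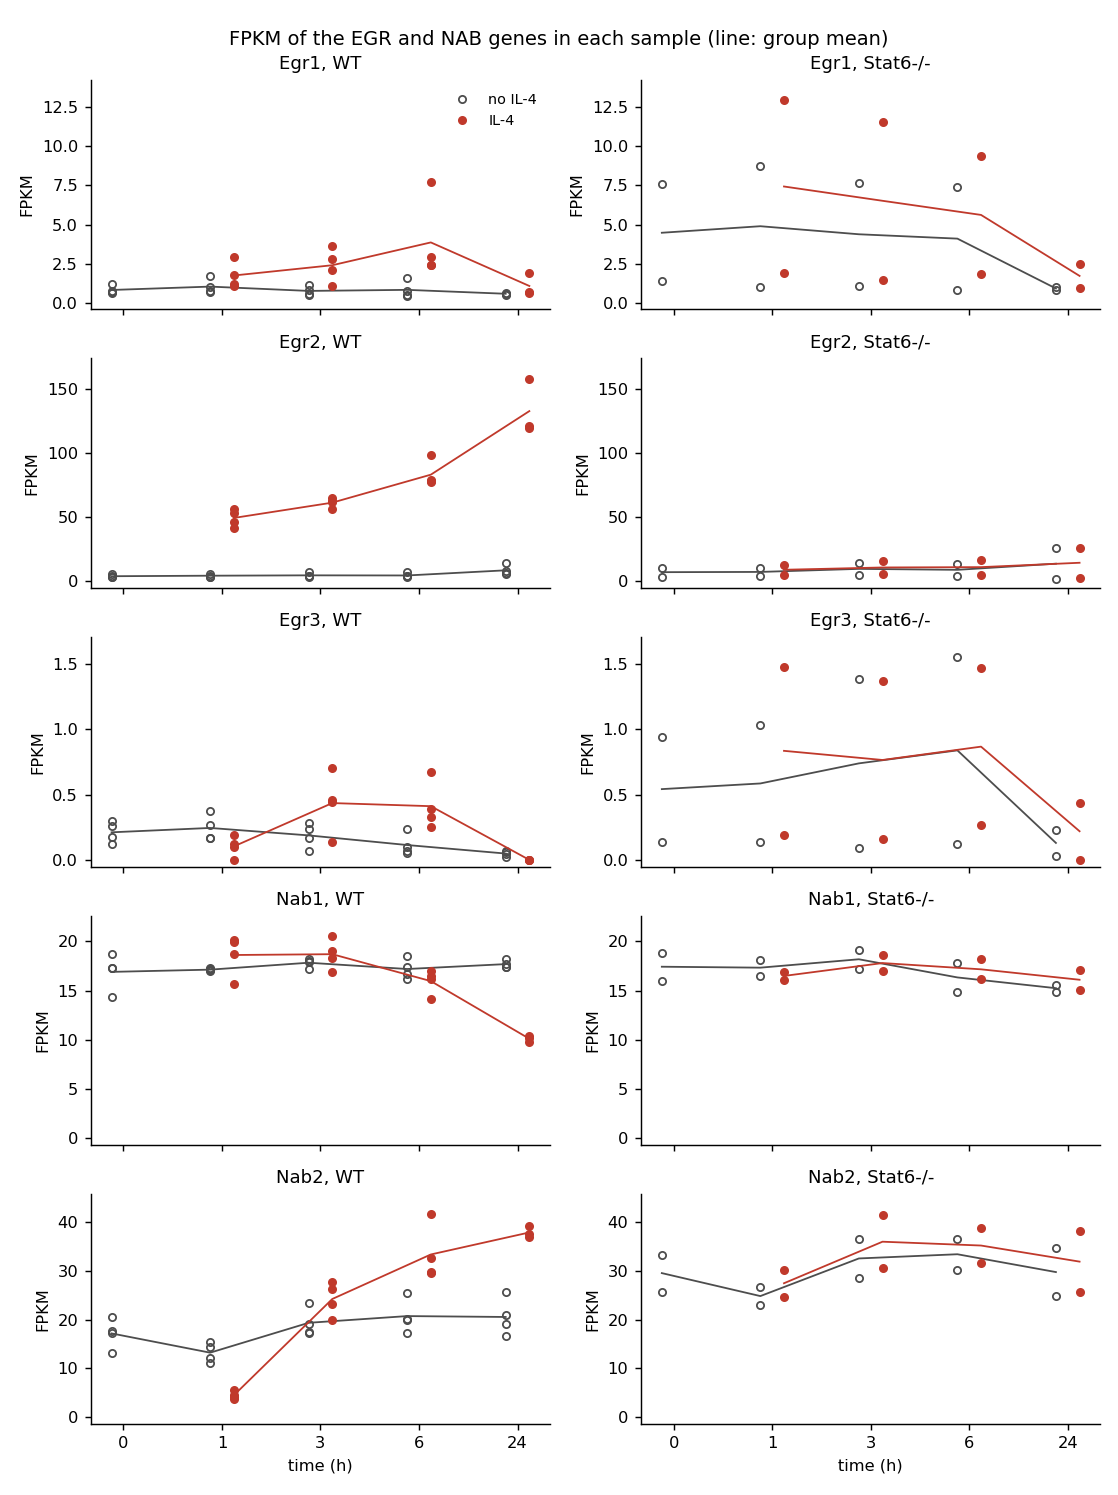
FPKM of each member in every sample (points) against time in hours, for WT (left) and Stat6-/- (right) cells without IL-4 (open, grey) and with IL-4 (filled, red), lines joining group means and both panels of a row sharing a scale. Egr2 with IL-4 lies between 41.7 and 158.3 FPKM in WT and below 27 FPKM in Stat6-/- cells, and Nab2 in WT falls to 3.66-5.47 FPKM at 1 h before it passes its controls.

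The first question was which members IL-4 changed in WT cells at each time. Tests were made with limma on log2(FPKM + 1), genes with an adjusted p below 0.05 and a change of at least 2-fold are named as called, and the share of all 11146 tested loci called by the same rule is given as the background. At 1 h, 2 of 5 members were called (Egr2 higher, Nab2 lower) against 1.49% of loci. At 3 h it was 1 of 5 (Egr2) against 3.88%, and at 6 h 2 of 5 (Egr2 and Egr1, both higher) against 5.54%. At 24 h Egr2 alone was called, 1 of 5 against 8.5% of loci. All 5 members passed the filter on low values, Egr3 through Stat6-/- replicate 2 alone. The members were also chosen with earlier results of these data known, so these counts are descriptions.

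Egr2 was the member with the largest IL-4 response in WT cells at each time, and its mean level with IL-4 was higher at each later time. Without IL-4 it stood at 3.19, 3.28, 3.79 and 5.51 FPKM at 0 h. After 1 h of IL-4 the 4 libraries read 41.7, 46.4, 56.6 and 53.1 FPKM, and their time-matched controls 3.58, 3.60, 4.28 and 5.94. Every treated library lay far above every control, at 11.4 times their mean. At 3 h the treated libraries read 64.8, 61.7, 56.2 and 63.0 FPKM and the controls 4.05, 3.64, 3.91 and 6.91. At 6 h they read 78.4, 98.6, 77.2 and 78.8 FPKM against 3.403, 4.01, 3.73 and 7.004, which is 18.4 times the control mean. At 24 h the 3 treated libraries reached 158.3, 119.4 and 121.0 FPKM, while the controls had also crept up to 5.77, 6.22, 7.95 and 14.3. No treated library overlapped a control at any time, and group means with IL-4 went from 49.5 ± 6.69 FPKM (SD, n = 4) at 1 h through 61.4 ± 3.71 and 83.3 ± 10.3 to 132.9 ± 22.0 FPKM (n = 3) at 24 h.

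The fitted log2 change of Egr2 in WT cells was 3.25 (SE 0.50, adjusted p = 5.09e-06) at 1 h, 3.50 (adjusted p = 4.23e-07) at 3 h, 3.96 (adjusted p = 2.64e-08) at 6 h and 3.88 (adjusted p = 1.64e-07) at 24 h. The response itself was not distinguishable between successive times, the log2 differences being 0.26 from 1 to 3 h, 0.46 from 3 to 6 h and -0.09 from 6 to 24 h, with adjusted p-values of 0.910, 0.925 and 0.949. Their 95% intervals are wide (-1.18 to 1.69 for the first), and a 2-fold change lies inside them. Egr2 was called in WT cells at each time under every alternative processing.

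In Stat6-/- cells Egr2 gave little response, and its 2 replicates differed more from each other than treated from control. Replicate 1 read 10.7 FPKM without and 13.0 FPKM with IL-4 at 1 h, and replicate 2 read 3.89 and 4.99. At 24 h the values were 25.9 and 26.3 FPKM in replicate 1 and 1.58 and 2.62 FPKM in replicate 2. IL-4 was therefore on the higher side in both. This held in 8 of 8 pairs of equal time and number, with ratios of 1.02 to 1.66, whereas WT pairs (15) had ratios of 8.47 to 25.4. Such pairs reuse the same replicate numbers over time, so they are not independent, carry no test and were not counted over all loci. The fitted change in Stat6-/- cells was 0.27 at 1 h (95% interval -1.16 to 1.71), and 0.15, 0.25 and 0.26 at 3, 6 and 24 h, with an adjusted p of 1 each time.

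The difference between the genotypes was tested as an interaction. The WT response of Egr2 exceeded the Stat6-/- response by a log2 difference of 2.98 (SE 0.87, adjusted p = 0.0458) at 1 h, 3.36 (adjusted p = 0.00636) at 3 h, 3.71 (adjusted p = 0.00182) at 6 h and 3.62 (adjusted p = 0.00216) at 24 h. Members called in this comparison were 2 of 5 at 1 h against 1.25% of loci (Egr2 and Nab2), then Egr2 alone, 1 of 5, against 3.48% at 3 h, 4.41% at 6 h and 6.85% at 24 h. The call at 1 h is fragile, because it held in 10 of 26 alternatives, with log2 differences of 2.35 to 3.60 and adjusted p-values of 1.99e-06 to 0.408. On leaving out all libraries of Stat6-/- replicate 1 or 2, the differences over the 4 times lay between 2.96 and 3.86. These fits leave 1 library per Stat6-/- group and are given by size only. At 3 h the call held in 24 of 26 and at 6 h in 26 of 26 alternatives. At 24 h it held in 22 of 25, and without the control replicate 1 of the Stat6-/- 24 h group the difference was 1.93 (adjusted p = 0.144).

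Nab2 moved in opposite directions at early and late times in WT cells, and it was the member called lower at 1 h. The 4 libraries with 1 h of IL-4 read 4.15, 3.66, 5.47 and 4.59 FPKM, and their controls 12.2, 11.03, 15.3 and 14.4. All treated libraries were below all controls, and the treated mean of 4.47 ± 0.767 FPKM was 33.7% of the control mean of 13.2 ± 1.97 FPKM (SD, n = 4). At 3 h the picture had turned, with 23.2, 19.9, 27.7 and 26.3 FPKM against 17.6, 17.3, 19.2 and 23.5 FPKM, and the groups overlapped. At 6 h the treated libraries read 29.6, 29.8, 32.7 and 41.6 FPKM against 17.2, 20.0, 20.2 and 25.6 FPKM. At 24 h they read 36.9, 37.7 and 39.2 FPKM against 19.0, 16.7, 20.9 and 25.7 FPKM. From 6 h on every treated library was above every control, at 1.61 and 1.84 times the control mean.

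With a replicate block the WT change of Nab2 at 3 h passed the p threshold in limma (0.31, adjusted p = 0.00137), below 2-fold. In the main fit the log2 change of Nab2 was -1.38 (SE 0.16, adjusted p = 6.96e-09) at 1 h and 0.31 (adjusted p = 0.143) at 3 h. It was 0.66 (adjusted p = 0.000649) at 6 h and 0.87 (adjusted p = 4.15e-05) at 24 h, both past the p threshold and below a 2-fold change, as were many loci: 41.2% and 55% of all tested loci passed the p threshold at these times. The turn between 1 h and 3 h was tested directly, and the response at 3 h exceeded that at 1 h by 1.69 (SE 0.22, adjusted p = 3.84e-07). Nab2 was the 1 of 5 members called for this step, against 1.61% of loci, and the call held in 28 of 28 alternatives. From 3 to 6 h 0 of 5 members were called (0.449% of loci) by limma, with 0 at an unadjusted p under 0.05. From 6 to 24 h it was also 0 of 5 (6.06% of loci), with Nab1 past an unadjusted p under 0.05.

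In Stat6-/- cells Nab2 was not lower with IL-4 at 1 h, the libraries reading 30.3 and 24.7 FPKM with IL-4 and 26.7 and 23.0 FPKM without. At 24 h they read 38.2 and 25.7 FPKM with and 34.8 and 24.8 FPKM without IL-4. The treated library was slightly above its same-numbered control in 8 of 8 pairs, by 1.04 to 1.13 times, and the fitted log2 changes of 0.14, 0.14, 0.07 and 0.09 did not pass. The responses of the genotypes differed at 1 h by -1.52 (SE 0.27, adjusted p = 0.00018), a call that held in 26 of 26 alternatives. The difference was 0.17 (adjusted p = 0.843) at 3 h, 0.59 (adjusted p = 0.143) at 6 h and 0.78 (adjusted p = 0.0330) at 24 h, the last below a 2-fold change. With a replicate block it was 0.17 (adjusted p = 0.429), 0.59 (adjusted p = 0.000803) and 0.74 (adjusted p = 4.68e-05). The blocked differences at 6 and 24 h thus passed the p threshold, below 2-fold. At 1 h the value was -1.48 and -1.56 without all libraries of Stat6-/- replicate 1 or 2. At 24 h it was 0.82 and 0.74. On leaving out 1 library it passed 2-fold, at 1.05 without replicate 1 of the Stat6-/- 24 h IL-4 group. Without replicate 2 of the Stat6-/- 24 h controls it was 1.01. The fits with libraries left out leave 1 library in a Stat6-/- group and are given by size only.

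The opposed moves of Egr2 and Nab2 at 1 h changed the proportion of factor to corepressor RNA in WT cells, measured within each library. The ratio of Egr2 to Nab2 FPKM was 0.328 without IL-4 and 11.2 ± 1.21 (SD, n = 4) with IL-4 at 1 h. It then dropped to 2.58 ± 0.466 at 3 h and 2.56 ± 0.594 at 6 h and was 3.51 ± 0.669 (n = 3) at 24 h, against control means of 0.235, 0.214 and 0.403. The peak of the ratio came at the first time point, before the peak of Egr2 itself. Summed over both families, the ratio of EGR to NAB FPKM was 2.24, 1.502, 1.79 and 2.79 with IL-4 and 0.185, 0.149, 0.143 and 0.235 in the matched controls. Egr2 made up 76.9-92.4% of the summed EGR FPKM in the WT control groups and 95.4-99.2% in the IL-4 groups. Of the 2 corepressors Nab2 contributed 19.5% of their summed FPKM at 1 h of IL-4 and 56.3%, 67.3% and 78.9% at the later times, against 43.4-54.4% in the control groups. These ratios are descriptions of RNA and carry no test.

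**Figure D2:**
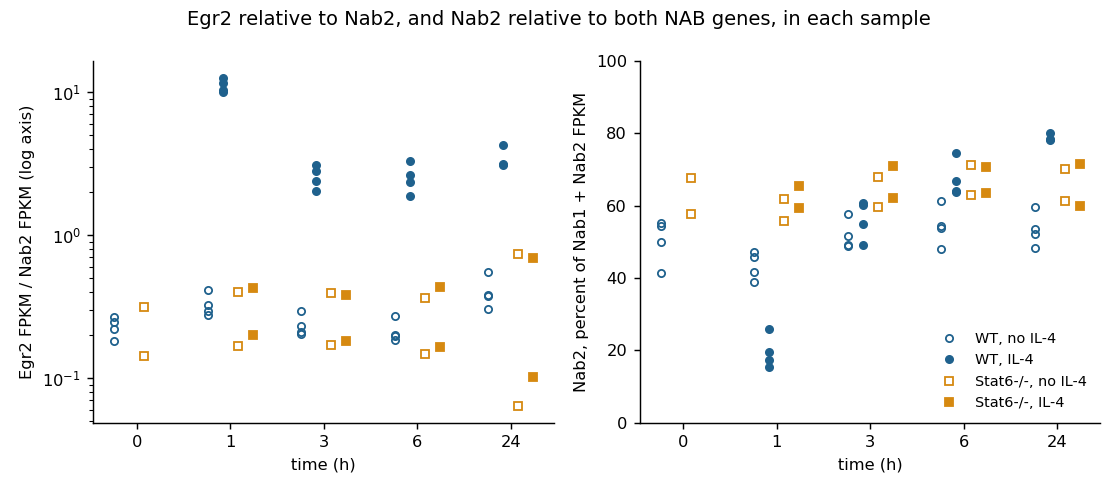
Egr2 FPKM over Nab2 FPKM on a log axis (left) and Nab2 as a percent of summed Nab1 and Nab2 FPKM (right) in each sample against time in hours, for WT (circles) and Stat6-/- (squares) without (open) and with IL-4 (filled). The WT ratio with IL-4 averages 11.2 at 1 h and 2.58 at 3 h, the WT groups with IL-4 at 6 and 24 h average 2.56 and 3.51, the groups of WT without IL-4 and of Stat6-/- stay below 1, and the Nab2 share at 1 h averages 19.5%.

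Egr1 (chr18:34861207-34864956, plus strand), the best known member and a classical serum response gene, was low in WT cells and passed the test at 6 h alone. Its control libraries held 0.440 to 1.68 FPKM over all times, with a median of 0.686. With IL-4 the libraries read 1.76, 2.93, 1.22 and 1.03 FPKM at 1 h, and 2.82, 3.62, 1.08 and 2.06 FPKM at 3 h. At 6 h they read 2.93, 7.71, 2.40 and 2.38 FPKM against controls of 0.769, 1.56, 0.510 and 0.440, and at 24 h 1.90, 0.657 and 0.648 FPKM. Replicate 2 was the highest of the WT libraries in 8 of 9 groups, and only at 6 h did all treated libraries exceed all controls. The mean at 6 h was 4.70 times the control mean.

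The fitted log2 change of Egr1 was 0.41 at 1 h, 0.91 at 3 h, 1.33 (95% interval 0.28 to 2.38, adjusted p = 0.0380) at 6 h and 0.35 at 24 h, and only the 6 h value passed. That call held in 10 of 21 alternatives, where values ran from 1.01 to 2.07 and adjusted p-values from 4.62e-06 to 0.565, and without replicate 2 of the 6 h IL-4 group it was 1.01 (adjusted p = 0.155). As a description, Egr1 was higher with IL-4 in 15 of 15 WT pairs of equal time and number, with ratios of 1.15 to 5.42. These pairs reuse the same replicate numbers over time, so they are not independent and carry no test. It was also higher in 8 of 8 Stat6-/- pairs, by 1.15 to 2.48 times, although the fitted changes there (0.52, 0.39, 0.48 and 0.45) did not pass. The genotypes' responses differed by -0.11, 0.52, 0.85 and -0.10 at the 4 times, with adjusted p-values of 1, 0.869, 0.622 and 0.951 and 95% intervals as wide as -0.98 to 2.67 at 6 h. On leaving out all libraries of Stat6-/- replicate 1 or 2 these differences lay between -0.45 and 1.02. In the main fit a difference in the Egr1 response between genotypes was thus neither shown nor limited to a small size. With a replicate block the SE of these differences was 0.39 at 1, 3 and 6 h and 0.40 at 24 h, against 0.90 at 6 h in the main fit. The differences did not pass there either, with adjusted p-values of 0.920, 0.410, 0.0991 and 0.865. The WT change of Egr1 at 3 h passed the p threshold in the blocked fit (adjusted p = 0.00108), below 2-fold.

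Egr3, an EGR factor best known from lymphocytes and muscle spindles, was close to the limit of detection in WT cells, and its values are given without weight on folds. WT libraries ranged from 0 to 0.702 FPKM, and the 3 libraries with 24 h of IL-4 were listed at 0 against 0.0237-0.0684 FPKM in their controls. At 6 h the treated libraries read 0.331, 0.670, 0.255 and 0.390 FPKM and the controls 0.0999, 0.236, 0.0669 and 0.0524, so that these groups did not overlap. The fitted changes of -0.17, 0.26, 0.34 and -0.07 did not pass, and the scale of log2(FPKM + 1) compresses changes at this level. Only libraries of Stat6-/- replicate 2 held 1 FPKM or more, up to 1.55 FPKM. Egr4, the remaining family gene, was listed at 0 in all libraries but 1, where it read 0.0114 FPKM, and was not tested.

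Nab1, the other corepressor, passed the p threshold in WT cells at 24 h alone, when it fell. The WT libraries at 1 h read 19.9, 20.2, 15.7 and 18.8 FPKM with IL-4 and 17.1, 17.3, 17.2 and 17.0 FPKM without. At 24 h the treated libraries read 10.2, 10.4 and 9.79 FPKM and the controls 17.4, 17.7, 18.2 and 17.4. The late fall was clear of the spread, with means of 10.1 ± 0.295 FPKM (SD, n = 3) and 17.7 ± 0.366 FPKM (n = 4), or 57.2% of control. It corresponded to a log2 change of -0.75 (SE 0.08, adjusted p = 3.25e-10), which is short of the 2-fold rule, while the changes of 0.11, 0.06 and -0.10 at the earlier times did not pass. The response at 24 h differed from that at 6 h by -0.65 (adjusted p = 1.02e-05) and from the Stat6-/- response by -0.82 (adjusted p = 6.87e-06), or -0.87 and -0.77 without all libraries of Stat6-/- replicate 1 or 2. In Stat6-/- cells Nab1 stayed within 14.9-19.2 FPKM in every library. Some marker genes were called lower at 24 h in WT cells as well. They were 2 of 5 macrophage markers, Mertk (-1.89) and Emr1 (-1.20), 1 of 3 neutrophil markers tested, S100a8 (-1.20), and Cd4 (-2.67). The other markers tested were not called, where 8.5% of all loci were. The part of the cell mixture in these values was not tested.

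**Figure D3:**
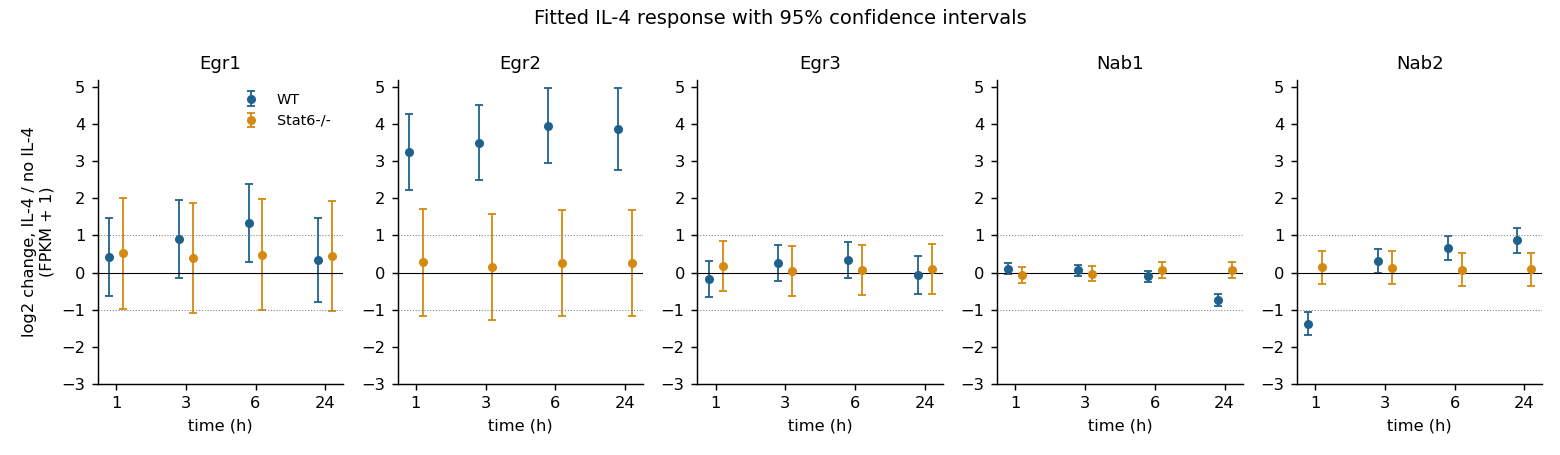
Fitted log2 change of each member with IL-4 against time in hours in WT (blue) and Stat6-/- cells (orange), bars showing 95% confidence intervals and dotted lines a 2-fold change. Egr2 in WT lies at 3.25 to 3.96, Nab2 in WT passes from -1.38 at 1 h to 0.87 at 24 h, and all Stat6-/- intervals include 0.

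No member was called for IL-4 in Stat6-/- cells. limma called 0 of 5 at each time, where 0% of all loci were called, with 0 members at an unadjusted p under 0.05 and 0 by analysis of variance with Tukey's test. Of 11146 loci, 37 to 131 had such a p, fewer than a cut at 0.05 gives by chance. The main fit was thus conservative in Stat6-/- cells, and these counts of 0 say little about a lack of response. With 2 libraries per group and replicates as far apart as those above, the 95% intervals for Egr2 ran from -1.29 to 1.71 on the log2 scale and those for Egr1 from -1.10 to 2.01, whereas those for Nab1 stayed within -0.28 and 0.28. A 2-fold response of Egr1 or Egr2 lies inside these intervals, and a 2-fold response of Nab1 does not. When the replicate number was added as a block, the intervals narrowed to -0.54 to 0.97 for Egr2, which leaves a 2-fold rise outside, and to -0.25 to 1.16 for Egr1. On leaving out all libraries of Stat6-/- replicate 1 or 2, fitted changes over the 4 times were 0.02 to 0.49 for Egr2. For Egr1 they were 0.09 to 0.80, for Egr3 -0.05 to 0.29, for Nab2 0.05 to 0.17 and for Nab1 -0.09 to 0.12.

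The next comparison was between genotypes in cells without IL-4. At 0 h, limma called 0 of 5 members (0.35% of loci), with 2 members, Egr1 and Nab2, at an unadjusted p under 0.05. Over the mean of 5 times it called 1 of 5, Egr1, against 0.287% of loci. Nab2 was higher in Stat6-/- cells, with 10 control libraries at 23.0-36.7 FPKM (median 29.4) against 20 WT control libraries at 11.03-25.7 FPKM (median 17.6), and 8 of the 10 lay above every WT library. The log2 difference was 0.75 at 0 h (adjusted p = 0.0277) and 0.70 over all times (SE 0.09, adjusted p = 1.02e-07), under 2-fold, and remained 0.54 without all libraries of Stat6-/- replicate 1 and 0.87 without those of replicate 2. Averaged by replicate number it was 15.7-21.9 FPKM in WT and 33.7 and 26.5 FPKM in Stat6-/-, and the exact permutation test over these 6 averages gave p = 0.133, the smallest that 2 against 4 can give. The sum of neutrophil markers was higher in the same libraries (above), and its part in this difference was not tested. Nab2 also lies next to Stat6, the targeted gene, with 70 bases shared. The parts of the altered locus and of the lack of STAT6 cannot be told apart here and were not tested.

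For Egr1 the genotype difference rested on 1 replicate. The averages by number were 0.588-1.22 FPKM in WT and 1.01 and 6.48 FPKM in Stat6-/-. The fitted difference of 1.04 (SE 0.29, adjusted p = 0.00715) was 0.18 without replicate 2 and 1.89 without replicate 1. Fits without a replicate leave 1 Stat6-/- library per time and are given by size only. The exact permutation p over the averages was 0.267. Egr2 depended on the replicates in the opposite way. Its difference of 0.50 (adjusted p = 0.204) became 1.38 without replicate 2 and -0.37 without replicate 1. Its exact permutation p was 0.667. Egr3 entered the fit only through Stat6-/- replicate 2, so its difference of 0.35, which was 0.77 without replicate 1 and -0.07 without replicate 2, is a description with no test. Nab1 differed by -0.04. Only for Nab2, 1 of 5 members, did both Stat6-/- replicates lie on the same side of all WT averages. This separation was not counted over all loci, and the exact permutation p of 0.133 for Nab2 leaves it a description.

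**Figure D4:**
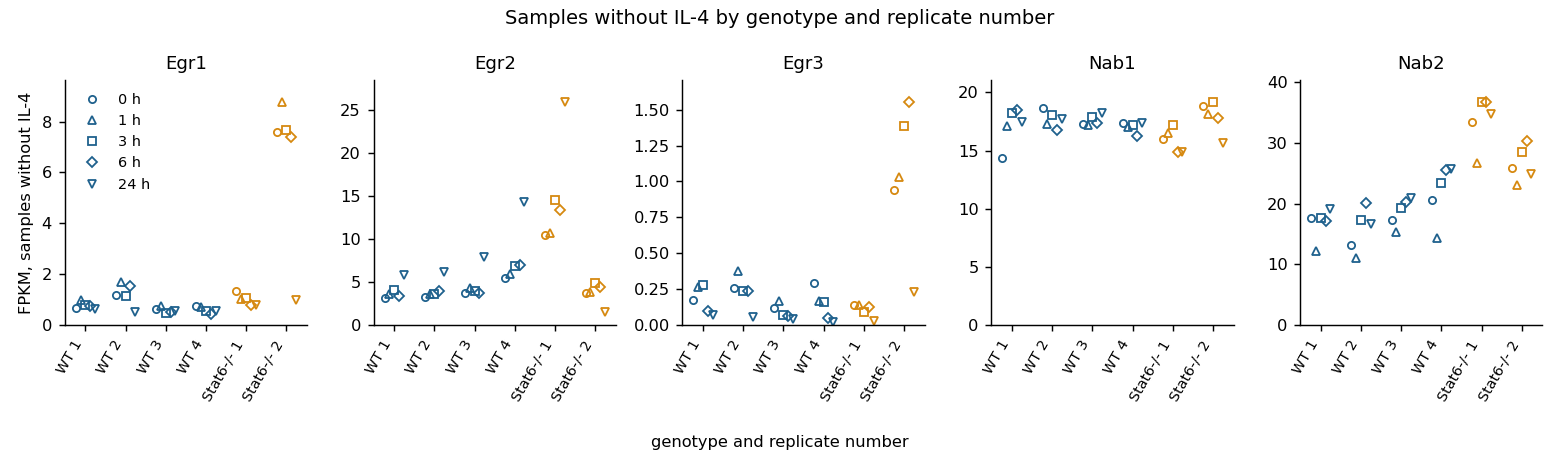
FPKM of each member in the samples without IL-4 by genotype and replicate number (WT blue, Stat6-/- orange, symbols marking the time). Stat6-/- replicate 2 is high for Egr1 and Egr3 and low for Egr2 relative to replicate 1, whereas both replicates are high for Nab2, at 23.0-36.7 FPKM.

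In the main fit, time in culture without IL-4 changed no member past the threshold. In WT cells limma called 0 of 5 at 1, 3, 6 and 24 h against 0 h, where 0%, 0.00897%, 0.0179% and 1.13% of loci were called, and Tukey's test called 0 as well. An unadjusted p under 0.05 was seen for Nab2 alone, at 1 h (log2 change -0.35, adjusted p = 0.350), when its mean went from 17.2 ± 3.02 to 13.2 ± 1.97 FPKM. Stat6-/- controls went from 33.4 and 25.8 FPKM at 0 h to 26.7 and 23.0 FPKM at 1 h. Egr2 without IL-4 went from 3.94 ± 1.08 FPKM at 0 h to 8.56 ± 3.94 FPKM at 24 h (SD, n = 4), a log2 change of 0.89 (adjusted p = 0.223). With a replicate block in limma the same Egr2 change had an adjusted p of 0.00358. WT Nab2 passed the p threshold in that fit at 1 h (-0.35, adjusted p = 0.00463), 6 h (0.26, adjusted p = 0.0434) and 24 h (0.25, adjusted p = 0.0130). All of these changes were below 2-fold, so the WT controls were not flat. In Stat6-/- cells 0 of 5 were called at 1, 3 and 6 h (0% of loci) and at 24 h (0.161%), with 0 at an unadjusted p under 0.05 and 0 by Tukey's test. Egr1 in replicate 2 went from 7.59 FPKM at 0 h to 1.01 FPKM at 24 h and in replicate 1 from 1.36 to 0.809. The fitted log2 change was -1.24 (adjusted p = 0.430), and -2.10 without replicate 1, which leaves 1 library at each time.

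The other genes of the pathway were taken from 4 lists. These were chosen with earlier results of these data known, so their counts beside the share of all loci are descriptions and show no enrichment. Over the 4 times in WT cells, 12.8% of all tested loci were called at least once. Of 12 immediate early genes tested, 6 were called, 2 higher and 4 lower. Of 16 genes known as EGR targets 11 were called, 5 higher and 6 lower. With a filter of 1 FPKM in 8 samples, 15 EGR targets were tested and 10 called. Of the 6 genes of SRF and its partners, which drive the EGR genes after growth factor signals, 2 were called. Of 13 subunits of NuRD, the complex that NAB proteins recruit, limma called 0 at each time, as did Tukey's test, with 0, 3, 4 and 9 at an unadjusted p under 0.05 at 1, 3, 6 and 24 h.

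The rise of Egr2 was thus not shared by the immediate early genes as a group. The median log2 change of the 12 was -0.74 at 1 h against -0.02 for all loci, and -0.20, 0.24 and 0.06 at 3, 6 and 24 h. Fos, the AP-1 subunit, fell from 88.4 to 19.2 FPKM at 1 h (log2 change -2.18) and was still lower at 6 h (-1.84). Dusp1, a phosphatase that switches off MAP kinases, had log2 changes of -2.26 at 1 h and -2.31 at 3 h. Btg2, an antiproliferative gene, fell by 1.67 at 1 h and was back at control level later, with values of -0.03 at 6 h and -0.10 at 24 h. The orphan nuclear receptor gene Nr4a1 was lower at all 4 times (-1.04, -1.65, -1.04 and -1.53). Ier3, a stress response gene, was the one that rose with Egr2, from 10.05 to 140.2 FPKM at 1 h (3.68), and the bZIP factor gene Atf3 rose at 24 h (1.22).

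The EGR target genes divided by direction and time. Those called lower at 1 h were Gdf15 (-2.38), a stress cytokine, Pdgfb (-2.30), a growth factor, Tnf (-2.09), the inflammatory cytokine, and Id3 (-1.15), an inhibitor of helix-loop-helix factors. Pdgfb went from 29.4 to 5.18 FPKM at 1 h and had a log2 change of -0.08 at 24 h. Tnf went from 20.2 to 3.99 FPKM at 1 h, and Gdf15 from 8.30 to 0.773 FPKM. Cdkn1a, the cell cycle inhibitor p21, was the target called higher at 1 h (1.31), and it stayed higher at 3 h (1.47) and 6 h (1.67). Others rose later: Cblb, a ubiquitin ligase, reached 1.90 at 24 h and Pdgfa, a growth factor, 2.44. F3, the coagulation factor receptor tissue factor, reached 2.32 at 24 h but was low, averaging 0.54 FPKM over all WT libraries. Csf1, named after its values were seen, was the fifth that rose. Vegfa, the angiogenic factor, was lowest at 6 h (-2.32), and Ndrg1 fell at 24 h (-1.64). In Stat6-/- cells 0 genes of these lists were called at any time, where 0% of all loci were called and the fit was conservative. Of SRF's partners, Elk3 was lower at 6 h (-1.11) and Mkl2 higher at 24 h (1.12).

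**Figure D5:**
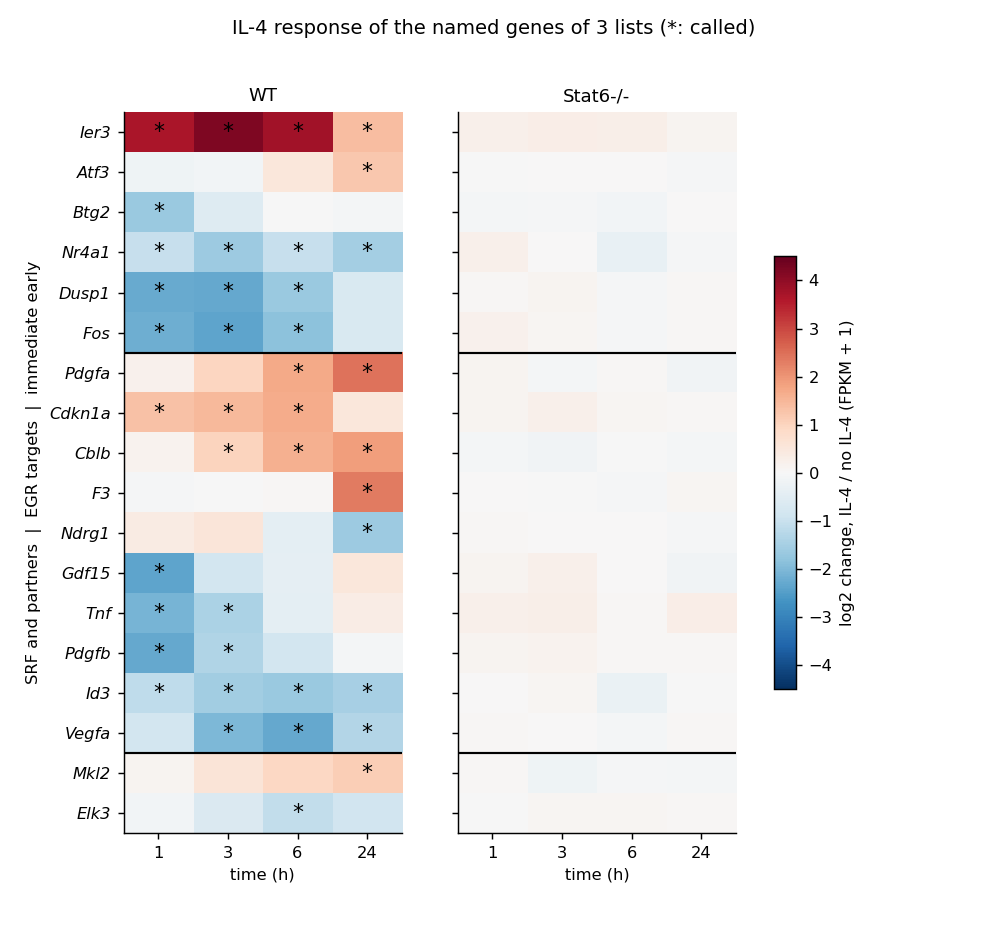
Fitted log2 change with IL-4 of the named immediate early genes, EGR targets and SRF partners (rows, in that order from the top) by time in hours in WT (left) and Stat6-/- cells (right), red higher and blue lower, an asterisk marking called values. Among immediate early genes in WT cells Ier3 runs from 3.68 at 1 h through 4.19 at 3 h to 1.40 at 24 h and Fos from -2.18 through -2.37 to -0.68, and no Stat6-/- value is called.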

How the data were processed

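Polyadenylated RNA of 53 BMDM samples in 18 groups (genotype, treatment, time, read from the sample labels) was sequenced from TruSeq libraries, a kit that does not mark strand. Per the labels, the authors used TopHat2 2.0.7 and Cufflinks 2.0.2 on mm10 and deposited 1 table of FPKM per sample. The gene annotation is not given in the sources used here. FPKM are not counts and are scaled within a sample, so the absolute depth is unknown, no counting interval is given, and abundant genes shift the rest. Relative depth was read from the FPKM steps of 7628 low loci, and 91.0% of 1378 sample pairs fell within 2% of 1 depth per sample.

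Tables were joined on locus, 5654 values under 0.0001 FPKM were set to 0, and no 2 samples held identical values. Loci that reached 1 FPKM in any sample (11146) entered limma 3.58.1 (R 4.3.3) on log2(FPKM + 1), which understates changes of low genes, with 1 mean per group, an intensity trend and 35 residual degrees of freedom. All tests were two-sided, with Benjamini-Hochberg adjustment per contrast, and calls needed an adjusted p below 0.05 and a log2 change of 1 or more in size. In each genotype cells with IL-4 were compared with cells of the same time without it, and further contrasts were the difference of these responses, the difference of WT responses between successive times, Stat6-/- against WT without IL-4, and time without IL-4. The fitting steps were tested on simulated data. Tables and figures were made with Python 3.11.15 (pandas 2.3.3, scipy 1.17.1, matplotlib 3.10.9).

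The members and gene lists were chosen with earlier results of these data known, and no p was adjusted over a list. Named genes were the 5 members, up to 4 called genes with the largest change per list and WT time, the 3 genes with the most similar group means for each member, called neighbours within 200 kb and Stat6. The study's WT replicates came from separate animals. The sources used here do not say whether samples with the same number share an animal, and where they do, p-values that treat them as separate are not exact. Alternatives were a pseudocount of 0.1, no filter or 1 FPKM in 8 samples, quantile normalization, rescaling without the 10 most abundant loci, no trend, a replicate block, only the samples compared, analysis of variance with Tukey's test, and each library left out. Leaving out all times of a replicate was chosen after seeing the data.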

Additional observations from a re-analysis of the deposited data

Results flagged for a closer look

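In 4 of 40 sets of 4 WT libraries, 1 library lay far from the other 3 by Dixon's test, where chance gives about 1 in 20, or 2 sets. Egr1 read 7.71 FPKM and Egr2 98.6 FPKM in replicate 2 of the WT 6 h IL-4 group, and Egr2 read 6.91 FPKM in replicate 4 of the WT 3 h controls and 7.004 FPKM in replicate 4 of the WT 6 h controls. Responses that differed between genotypes by a test of the difference were those of Egr2, by log2 differences of 2.98, 3.36, 3.71 and 3.62 at 1, 3, 6 and 24 h, and that of Nab2, by -1.52 at 1 h. The response of Nab2 in WT cells also differed between times, by 1.69 from 1 to 3 h.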

How the results depend on the processing

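Of 13 called results of single members, 8 were called under every alternative, and no called value changed sign. The 1 h interaction of Egr2 and the 6 h response of Egr1 were the least stable, as given above. Members called at 6 h in WT cells were 2, but 1 (Egr2) without a filter and with Tukey's test, and 1-2 on leaving out single libraries. Members whose response differed by genotype at 1 h were 2, but 1 (Nab2) with a pseudocount of 0.1, without a filter and with rescaling, and 1-2 on leaving out libraries. At 3 h the count was 1, or 0-1 on leaving out libraries, and at 24 h it was 1, but 0 with only the samples compared and 0-2 on leaving out libraries. Between genotypes without IL-4 the counts of 0 at 0 h and 1 over all times both ran from 0 to 1 on leaving out libraries. With a pseudocount of 0.1 the calls over all loci rose from 617 to 931 (WT 6 h), 947 to 1522 (WT 24 h), 763 to 1198 (by genotype, 24 h), 180 to 278 (1 to 3 h), 50 to 86 (3 to 6 h), 39 to 89 (genotype, 0 h) and 32 to 130 (genotype, all times) and 126 to 260 (untreated WT, 24 h). With only the samples compared 39 fell to 1 (genotype, 0 h), 126 rose to 215 (untreated WT, 24 h) and 18 fell to 0 (untreated Stat6-/-, 24 h), and with a replicate block these untreated counts were 215 and 140. Counts of 0 to 2 in other comparisons moved to at most 10 under these 3 settings. The cause of these shifts was not tested. The replicate numbers were not taken as pairs in the main fit, and the sources used here do not say whether they share an animal. Deviations of same-numbered samples correlated at 0.03-0.56 in WT, over 0.1 in 13 of 15 cases, and at 0.79-0.90 in Stat6-/-, in 8 of 8. The WT mean was 0.27, against -0.09 for other numbers, so the main fit leaves out a shared part. With a replicate block the SE of the Egr2 response at 1 h in WT was 0.24, against 0.50. A replicate block changed 1 member call, Egr1 in untreated Stat6-/- cells at 24 h (-1.24, adjusted p = 0.00589), so 1 member was called there and 0-1 on leaving out libraries. No blocked fit was made between genotypes, where numbers lie within genotype. Of 43 called results of other named genes, 41 held throughout, and Nr4a1 at 6 h (-0.9998 to -0.91) and Pdlim2 at 24 h (-0.9988 to -0.96) fell short under 3 and 4 alternatives. Depth limits Egr3, whose values lie near 0.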

Other observations

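The nearest gene to Egr2 that was tested, Ado, which encodes a thiol dioxygenase, lies 2.323 kb beyond it on chr10:67544511-67548955 and rose with it. It read 10.1 ± 0.654 FPKM in WT controls and 29.8 ± 0.968 FPKM with IL-4 at 1 h (SD, n = 4). Its log2 change was 1.47 (adjusted p = 9.84e-12) at 1 h, then 1.13, 1.14 and, at 24 h, 0.59, which is below 2-fold, so that Ado was highest at 1 h and Egr2 at 24 h. In Stat6-/- cells it changed by 0.01, 0.02, 0.18 and -0.02, and the difference between genotypes at 1 h was 1.46 (adjusted p = 1.12e-05). Around the other members, within 200 kb, 0 of 5 tested neighbours of Egr1 were called in WT cells, and those called near Egr3 (2 of 6), Nab1 (1 of 2) and Nab2 (1 of 6) were all lower with IL-4. They were Sorbs3 (-1.70) and Pdlim2 (-1.06) at 24 h, both of which encode adaptor proteins of the cytoskeleton, Mfsd6 (-1.46) at 6 h, and Lrp1 (-1.27), an endocytic receptor of macrophages, at 6 h. Over all tested loci 12.8% were called at any WT time, 733 higher and 705 lower. With so few neighbours per member, the counts and their direction are descriptions.

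Over the 18 group means, among 2675 loci that varied at least 2-fold, the genes most like Egr2 were Hbegf (Pearson r = 0.978), Smap2 (0.968) and Batf3 (0.967). Hbegf, which encodes an EGF receptor ligand, was near 0 in WT controls and read 3.89 ± 0.630 FPKM at 1 h of IL-4, with log2 changes of 2.24, 2.35, 2.58 and 2.52 over the 4 times. Batf3, a bZIP factor gene, changed by 1.96, 3.14, 3.36 and 2.76. The genes most like Nab1 were Slfn8 (0.945), Epb4.1 (0.936) and H2-M3 (0.933), and Slfn8 fell at 24 h from 29.5 to 7.07 FPKM. Egr3 was most like Egr1 (0.908), then Il18bp (0.897) and Ccnd2 (0.896), and Egr1 was most like Eps8 (0.872), G530011O06Rik (0.869) and Ccnd2 (0.865), where the high Stat6-/- means come largely from replicate 2. For Nab2 the closest were Mapk9 (0.889), which was listed at 0 in 1 library of the 1 h IL-4 group, Midn (0.864) and Btg2 (0.853). All these genes share the same libraries and scaling, and the r values are descriptions.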
